A study of Mus musculus with 12 samples.

Results

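The interferon-induced GTPases described here are 9 genes, Gbp2, Gbp3, Gbp6, Gbp7, Igtp, Irgm1, Irgm2, Iigp1 and Tgtp1, taken by symbol from a table of 25705 genes measured by RNA sequencing in mouse colonic adenomas. All 9 symbols were found, each with 1 row, and all 9 passed the filter on low values, which kept the 15150 genes that reached 1 FPKM in 3 or more of the 12 libraries. FPKM, a fragment count divided by transcript length and by the library's mapped fragments, is the unit in which the authors deposited the values.

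Interferon-induced GTPases are a main cell-autonomous defence of mouse cells against bacteria and protozoa that live inside vacuoles. They fall into guanylate-binding proteins (the Gbp genes), which coat and break pathogen membranes and feed inflammasomes, and immunity-related GTPases (Igtp, Irgm1, Irgm2, Iigp1, Tgtp1). Among the immunity-related GTPases, the Irgm proteins and Igtp sit on the cell's own membranes and hold the effectors Iigp1 and Tgtp1 inactive there. Interferons bind receptors that signal through JAK kinases, and the transcription factors activated in this way act on these genes at GAS elements and at interferon-stimulated response elements (ISRE).

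The adenomas came from C57BL/6J mice that all carried ApcMin/+, a heterozygous truncating allele of the tumour suppressor Apc, and that were killed at 150 to 160 days of age. Each of 4 genotype groups had 3 libraries: Tet1-null (Tet1-/- Tdg+/+), double-heterozygous (Tet1+/- TdgN151A/+), Tdg-heterozygous (Tet1+/+ TdgN151A/+) and control (Tet1+/+ Tdg+/+). TET1 oxidises 5-methylcytosine in DNA and TDG removes the oxidised bases, and the design asks what loss or mutation of either does to transcript levels in adenomas. The labels do not say that the samples of a group came from separate mice, so p-values measure the spread between these samples, which may be technical. Xist was above 10 FPKM in 1 Tet1-null, 0 double-heterozygous, 2 Tdg-heterozygous and 2 control libraries. It ran from 0.0803 to 357 FPKM in the Tet1-null, 0.0636 to 336 FPKM in the Tdg-heterozygous and 0.0758 to 361 FPKM in the control group. Libraries of the same group thus differed widely in Xist, except in the double-heterozygous group (0.114 to 0.237 FPKM). Whether each library of a group came from its own mouse was not tested. Libraries are numbered 0 to 2 within a group, as in the deposited table, and these numbers could not be tied to single labelled samples.

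Total FPKM per library ranged from 663551 to 977282, and the number of reads behind a library is unknown, because the low values did not share a common step. Tet1 was below 1 FPKM in 12 of 12 libraries, 0.163 to 0.621 FPKM in the Tet1-null group and 0.403 to 0.478 FPKM in the controls, so its level did not check the labels. The epithelial genes Epcam, at 753 to 1856 FPKM, and Krt8, at 705 to 4575 FPKM, were present in 12 of 12 libraries, as the tissue label has it. Tet1-null library 1, double-heterozygous library 0 and Tdg-heterozygous library 2 stood apart, with summed neutrophil markers (8 of 8 in the table) of 2664, 4049 and 8027 FPKM against 287 to 1349 FPKM in the other libraries. In Tet1-null library 1 the marker Ly6g alone was at 1062 FPKM, against 81.5 FPKM in Tdg-heterozygous library 1 (sum 1349 FPKM). For the same libraries S100a8 was at 848 and 712 FPKM, and Mmp8 at 7.81 and 11.2 FPKM. The libraries that stood apart also had the highest intestinal epithelial marker sums of their groups. The median difference of the GTPases in each comparison is given with and without the libraries that stood apart.

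The sequences just upstream of the genes show the elements through which the background pathway acts, and 5 are printed to let the arrangement be compared. RefSeq promoter sequence on GRCm38.p6 matched 7 of the 9 genes; Gbp6 and Iigp1 had no entry. The 250 bases before each annotated start were searched on both strands for the ISRE core GAAANNGAAA and for the GAS element TTCNNNGAA, and matches are in capitals. Each sequence runs 5′ to 3′ on the gene's strand and ends at the base before the start. Igtp and Irgm2 (+ strand) are chr11:58199306-58199555 and chr11:58214727-58214976, Tgtp1 and Irgm1 (- strand) are chr11:48992247-48992496 and chr11:48871421-48871670, and Gbp2 (+ strand) is chr3:142620413-142620662.
Igtp: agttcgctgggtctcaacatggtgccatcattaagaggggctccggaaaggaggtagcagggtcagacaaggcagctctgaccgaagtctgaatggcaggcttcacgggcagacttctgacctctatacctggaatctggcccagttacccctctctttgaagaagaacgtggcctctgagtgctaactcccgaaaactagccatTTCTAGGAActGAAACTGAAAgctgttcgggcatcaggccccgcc
Irgm2: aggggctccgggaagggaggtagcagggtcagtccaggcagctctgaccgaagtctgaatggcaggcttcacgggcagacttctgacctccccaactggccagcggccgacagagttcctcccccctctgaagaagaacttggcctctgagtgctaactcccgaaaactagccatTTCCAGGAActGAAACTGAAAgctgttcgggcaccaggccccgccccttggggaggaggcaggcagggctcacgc
Tgtp1: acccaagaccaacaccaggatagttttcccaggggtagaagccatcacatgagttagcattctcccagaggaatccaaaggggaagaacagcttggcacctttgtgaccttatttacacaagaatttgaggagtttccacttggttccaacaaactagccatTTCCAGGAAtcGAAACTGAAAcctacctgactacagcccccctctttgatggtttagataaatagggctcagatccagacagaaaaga
Irgm1: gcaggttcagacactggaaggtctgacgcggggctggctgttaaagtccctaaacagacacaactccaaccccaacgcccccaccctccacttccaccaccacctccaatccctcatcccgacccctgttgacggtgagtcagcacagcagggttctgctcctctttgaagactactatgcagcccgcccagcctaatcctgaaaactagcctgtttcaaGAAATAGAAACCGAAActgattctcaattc
Gbp2: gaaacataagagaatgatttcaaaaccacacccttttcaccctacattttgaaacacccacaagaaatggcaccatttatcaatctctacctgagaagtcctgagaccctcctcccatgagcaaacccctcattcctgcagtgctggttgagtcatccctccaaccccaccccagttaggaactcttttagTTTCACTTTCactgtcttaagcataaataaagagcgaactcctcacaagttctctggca

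An ISRE core was found in 7 of the 7 genes, and a GAS element in 4, Gbp7, Igtp, Irgm2 and Tgtp1. Over the 27025 genes with a RefSeq promoter sequence, 3.46% had an ISRE core and 8.13% a GAS element in the same 250 bases. In Igtp, Irgm2 and Tgtp1 the capitals show the same layout, a GAS element followed by an ISRE core after 2 bases, although the site lies at different distances from the start (the ISRE core ends 25, 55 and 68 bases before it). Gbp7 held a pair of GAS elements, 44 and 25 bases before its ISRE core. In Irgm1 and Gbp3 a pair of ISRE matches overlapped, in Irgm1 15 to 30 bases before the start and in Gbp3 30 to 45 bases before it. In Gbp2, Gbp3 and Gbp7 the ISRE core lay on the opposite strand, where it reads as TTTCACTTTC, TTTCAGTTTC with TTTCTATTTC, and TTTCAGTTTC on the gene's strand. A second annotated start of Gbp3 had neither match. With their ISRE cores aligned, the Igtp and Irgm2 sequences shared 134 of 220 bases (60.9%), while Igtp and Tgtp1 shared 38.2%. These matches describe letters in a window and do not show binding.

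**Figure D1:**
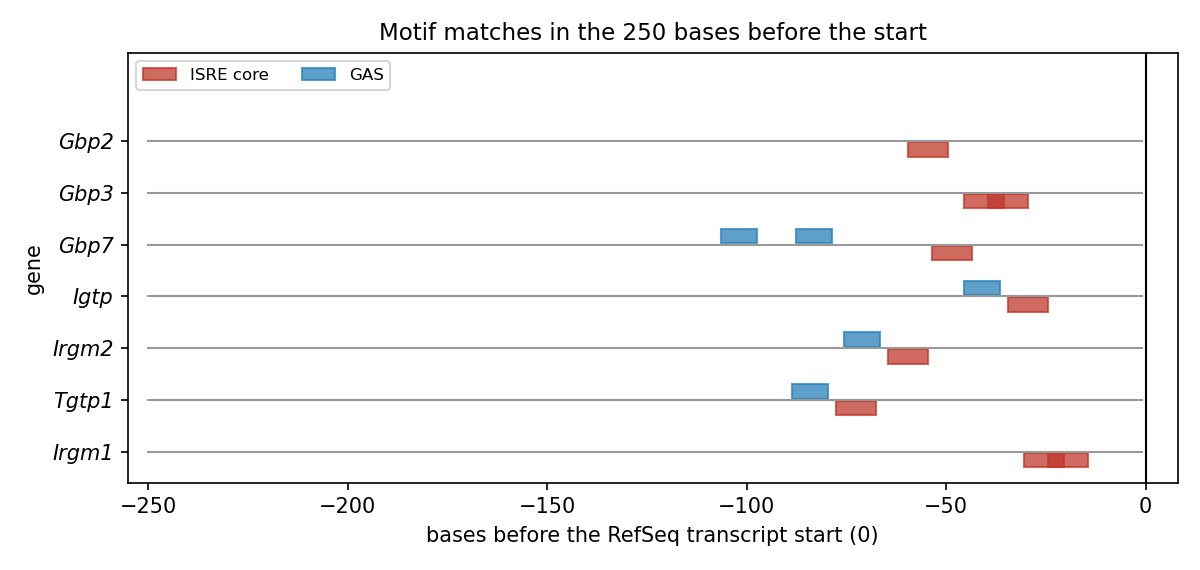
Positions of ISRE core matches (red, below each line) and GAS matches (blue, above) in the 250 bases before the RefSeq start of 7 GTPase genes, with bases before the start on the x axis and the start at 0. The matches lie within 106 bases of the start in all 7 genes, and in Igtp, Irgm2 and Tgtp1 the GAS and ISRE matches are 2 bases apart.

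The 9 genes sit in clusters. In GENCODE M21 on GRCm38 (the build the labels call mm10), Gbp7, Gbp3 and Gbp2 follow each other on chromosome 3 (142530342 to 142550149, 142560026 to 142573209 and 142620602 to 142638008, all on the + strand). Gbp6 lies in a second Gbp cluster on chromosome 5 (105214907 to 105293695, - strand). On chromosome 11, Irgm1 (48861968 to 48871683) and Tgtp1 (48985327 to 48994172) are on the - strand, and Igtp (58199556 to 58207591) and Irgm2 (58199618 to 58222782) overlap on the + strand. Because the authors' handling of overlapping and repeated sequence was not given in the sources used here, some levels are uncertain. Of all 75-base windows of the transcript, 87.7% of those of Tgtp1 were also in another gene (84.8% in its near copy Tgtp2), and 86.0% of those of Gbp6 were in Gm43302, an annotated gene that had no row of its own. The share was 11.4% for Gbp7, 8.37% for Igtp, 4.28% for Irgm2, 2.68% for Gbp3 and 0.983% for Gbp2. It was 0 for Irgm1 and Iigp1, so no exact 75-base window of theirs was in a transcript of another annotated gene. Matches with mismatches and unannotated sequence were not counted.

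Levels of the GTPases, already scaled to transcript length in FPKM, were ordered by their median over the 12 libraries. Irgm1 was the most abundant at a median of 18.7 FPKM and exceeded Irgm2, the next, in 12 of 12 libraries. Irgm2 (9.35 FPKM), Gbp2 (7.22), Igtp (4.94), Iigp1 (4.26) and Gbp3 (3.05) followed. Neighbours in that order were not cleanly separated: Irgm2 exceeded Gbp2 in 8 of 12 libraries and Iigp1 exceeded Gbp3 in 7. Gbp6 (2.34 FPKM), Tgtp1 (2.09) and Gbp7 (2.07) were the lowest by median, and Tgtp1 exceeded Gbp7 in 5 of 12 libraries. Tgtp1, Gbp6 and Iigp1 were below 1 FPKM in some libraries, reaching it in 7, 9 and 11 of 12.

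Irgm1, a regulator of the other immunity-related GTPases that mouse studies also tie to autophagy and to resistance against mycobacteria, was measured at 28.5, 19.8 and 74.4 FPKM in Tet1-null libraries 0, 1 and 2. It was at 13.4, 15.2 and 17.5 FPKM in the double-heterozygous, 21.8, 27.1 and 10.6 FPKM in the Tdg-heterozygous and 10.98, 23.5 and 14.2 FPKM in the control libraries. The lowest Tet1-null library lay above all 3 double-heterozygous libraries and below 1 control library, so that the Tet1-null group overlapped the controls. The group means were 40.9 ± 29.3 FPKM (SD, n = 3) in Tet1-null, 15.4 ± 2.08 in double-heterozygous, 19.8 ± 8.45 in Tdg-heterozygous and 16.3 ± 6.52 in control adenomas. Tet1-null library 2 alone was at 74.4 FPKM, and leaving it out lowered the log2 difference between Tet1-null and control from 1.12 to 0.59.

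Irgm2 and Igtp, the other regulators on the cell's own membranes, spread more widely. Igtp was at 16.1, 3.04 and 41.9 FPKM in the Tet1-null, 2.29, 4.89 and 3.45 FPKM in the double-heterozygous, 10.7, 13.1 and 2.43 FPKM in the Tdg-heterozygous and 2.57, 9.17 and 5.0 FPKM in the control libraries. Irgm2 reached 21.3, 4.36 and 43.5 FPKM in the Tet1-null group, and lay between 2.72 and 15.98 FPKM in the other 9 libraries. For both genes the Tet1-null group held both 1 of the 4 lowest of all 12 libraries and the highest, and it overlapped every other group. The mean of Igtp was 20.3 ± 19.8 FPKM (SD, n = 3) in Tet1-null and 5.58 ± 3.34 FPKM in control adenomas.

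Iigp1, an effector that loads onto the vacuole of Toxoplasma gondii, lies on chromosome 18 (60376027 to 60392634, + strand). It was at 12.4, 1.25 and 21.9 FPKM in the Tet1-null, 2.06, 4.56 and 2.66 FPKM in the double-heterozygous, 7.58, 14.3 and 0.330 FPKM in the Tdg-heterozygous and 1.05, 10.5 and 3.97 FPKM in the control libraries. Tgtp1, an effector of the same kind, was at 3.75, 0.115 and 8.05 FPKM in the Tet1-null, 0.384, 2.23 and 0.605 FPKM in the double-heterozygous, 3.96, 6.21 and 0.104 FPKM in the Tdg-heterozygous and 0.437, 5.11 and 1.94 FPKM in the control libraries. Both effectors were among their 3 lowest in Tet1-null library 1 and at their lowest in Tdg-heterozygous library 2, and all pairs of groups overlapped for both. Tgtp1 had the widest range of the 9 genes, its highest library being 77.2 times its lowest, a ratio that rests on a lowest value of 0.104 FPKM. The ratios of Gbp6 (67.7) and Iigp1 (66.5) likewise rest on lowest values of 0.189 and 0.330 FPKM.

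Gbp2, which gathers on pathogen membranes, was measured at 11.3, 5.28 and 32.6 FPKM in Tet1-null libraries 0, 1 and 2 and at 4.65, 3.64 and 6.45 FPKM in the double-heterozygous libraries. It was at 11.8, 21.7 and 7.99 FPKM in the Tdg-heterozygous and at 3.12, 10.2 and 4.43 FPKM in the control libraries. The 3 Tdg-heterozygous libraries all lay above the 3 double-heterozygous libraries, with means of 13.8 ± 7.09 and 4.91 ± 1.42 FPKM (SD, n = 3). Gbp2 differed from the other 8 genes in Tdg-heterozygous library 2, where its 7.99 FPKM stood above its 12-library median of 7.22 FPKM while the others were below theirs.

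Gbp3, Gbp6 and Gbp7, further guanylate-binding proteins, were lower. Gbp3 reached 7.49, 1.77 and 24.0 FPKM in Tet1-null libraries 0, 1 and 2, and lay between 1.29 and 5.30 FPKM in the other 9 libraries. Gbp6 reached 4.61, 0.466 and 12.8 FPKM in the same libraries and lay between 0.189 and 4.77 FPKM elsewhere. Gbp7, which helps assemble the phagocyte oxidase in mouse macrophages, reached 3.91, 1.83 and 8.96 FPKM there and lay between 1.47 and 3.41 FPKM elsewhere. All 3 genes were highest in Tet1-null library 2 and second highest or close to it in Tet1-null library 0, and the third Tet1-null library lay within the range of the controls or below it. Gbp7 had the narrowest range of the 9 genes, its highest library being 6.10 times its lowest.

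**Figure D2:**
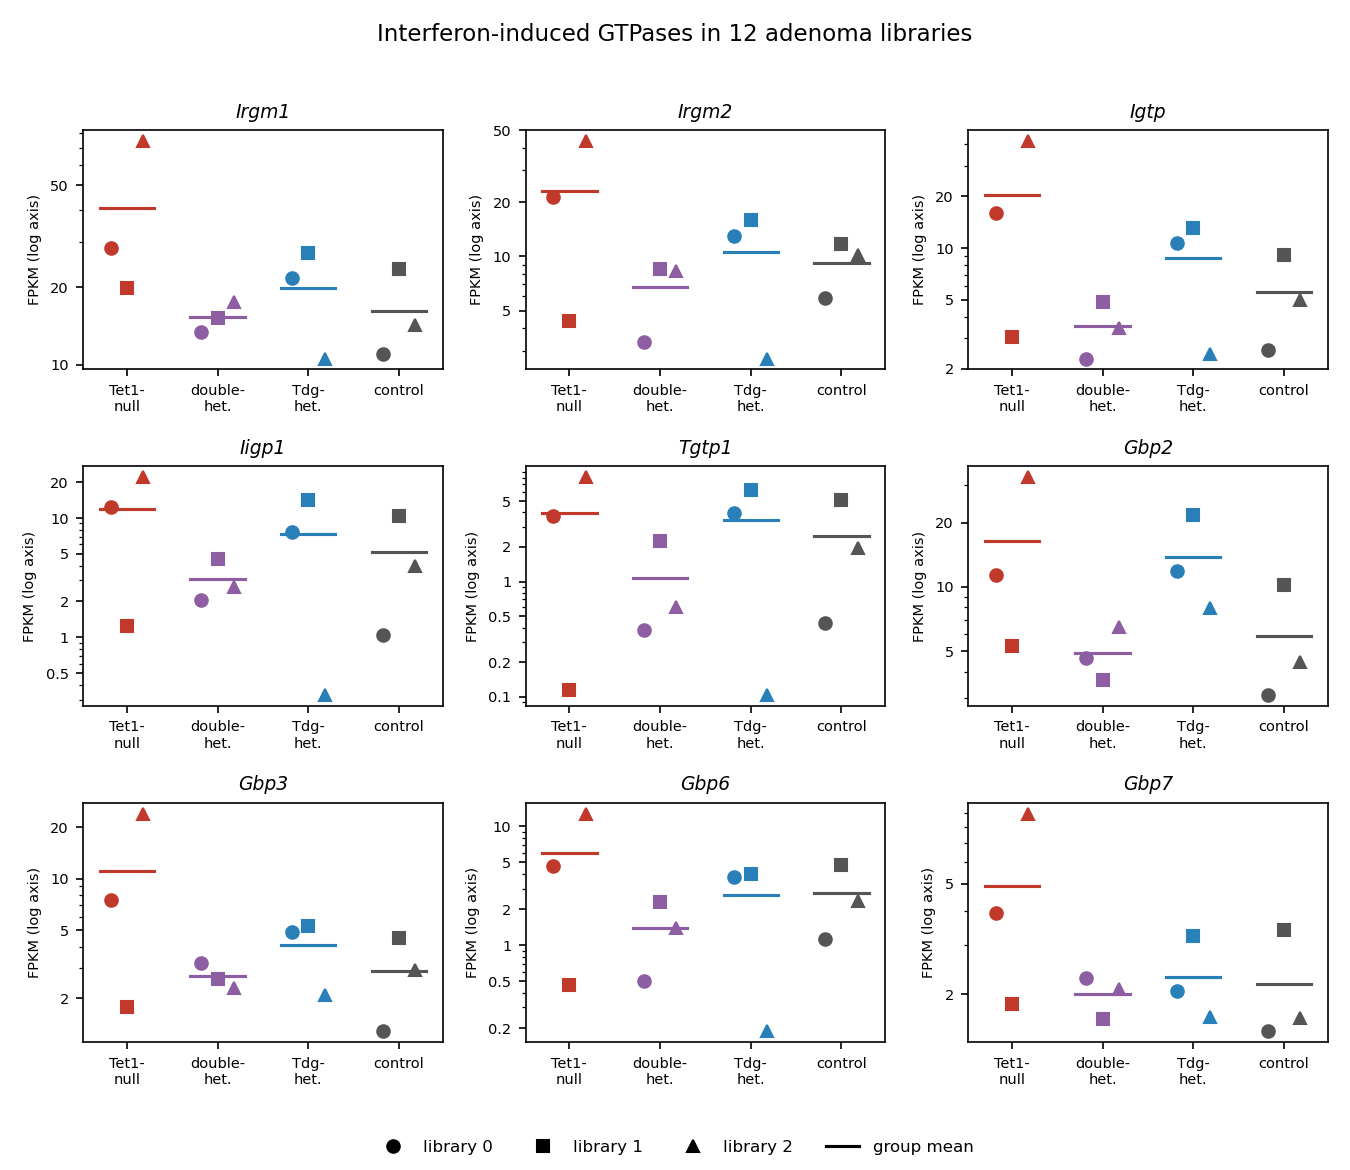
FPKM (log axis) of each of the 9 GTPases in 12 libraries, by genotype group; marker shapes give the library number and bars the group mean of 3 libraries. Tet1-null library 2 is the highest point in all 9 panels, from 8.05 FPKM for Tgtp1 to 74.4 FPKM for Irgm1, while Tet1-null library 1 lies among the lower points for most genes.

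The 9 genes followed one another from library to library. Tet1-null library 2 was the highest of 12 for 9 of 9 genes, by 1.30 times over the next library for Tgtp1 and 3.20 times for Gbp3. The lowest library was Tdg-heterozygous 2 for 5 genes, control 0 for 3 and double-heterozygous 0 for Igtp. Over the 12 libraries, Pearson's r of log2(FPKM + 1) across the 36 gene pairs ranged from 0.73 (Gbp7 with Tgtp1) to 0.97 (Gbp6 with Irgm2), with a median of 0.87, and the pairs share libraries and in part sequence. Without Tet1-null library 2 the range was 0.57 to 0.96 and the median 0.80.

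The mean of log2(FPKM + 1) over the 9 genes summarised each library. It was 3.44, 1.81 and 4.63 in the Tet1-null, 1.85, 2.35 and 2.18 in the double-heterozygous, 3.04, 3.45 and 1.58 in the Tdg-heterozygous and 1.71, 3.15 and 2.38 in the control libraries. The double-heterozygous libraries were close together and the Tet1-null libraries far apart. The group means were 3.29 ± 1.41 (SD, n = 3), 2.13 ± 0.258, 2.69 ± 0.983 and 2.41 ± 0.722, in the same group order. The SD of all 9 genes was above the median SD of all genes tested in 3 of the 4 groups, and in the double-heterozygous group that of Gbp3, Gbp7 and Irgm1 was below it. The SD of log2(FPKM + 1) within the Tet1-null group had a median of 1.56 over the 9 genes and 0.338 over all genes tested, within the double-heterozygous group 0.421 against 0.268, within the Tdg-heterozygous group 1.11 against 0.321 and within the controls 0.723 against 0.188. The groups accounted for a median of 30.2% of the variance of the 9 genes (11.3% to 44.9%) and of 15.2% over all genes tested, which is a description with no test.

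**Figure D3:**
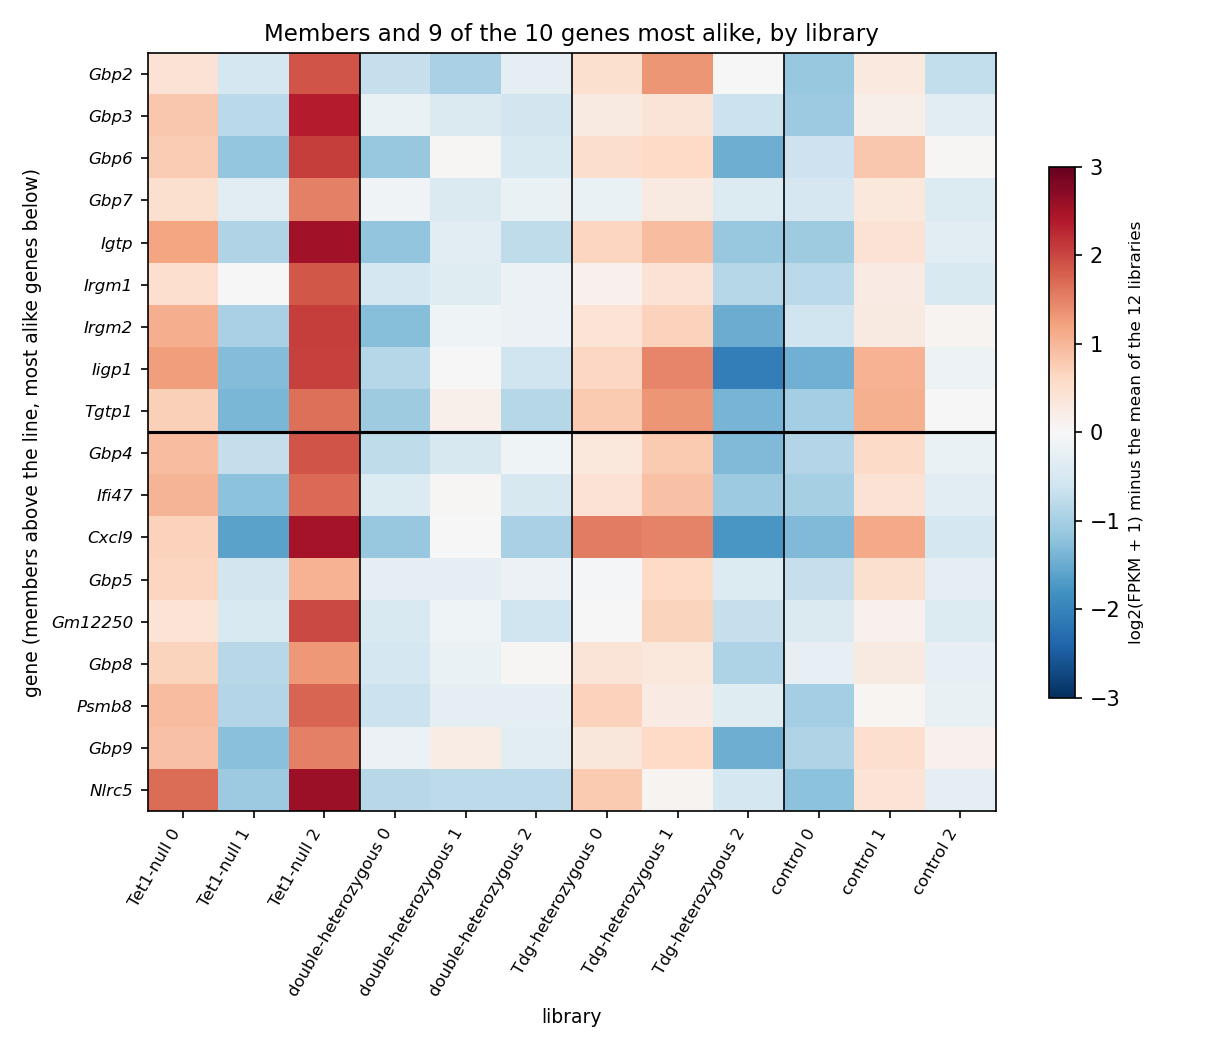
Heat map of log2(FPKM + 1) minus the 12-library mean for the 9 GTPases (above the line) and 9 of the 10 genes most alike (below it), with libraries in columns by genotype group. The column of Tet1-null library 2 is red for all 9 GTPases, and Tet1-null library 1 and Tdg-heterozygous library 2 are blue for most of them.

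Whether adenomas without Tet1 differed from controls in these genes was tested by limma on log2(FPKM + 1) over all 15150 genes. The log2 difference, Tet1-null minus control, was above 0 for 9 of 9 GTPases, with a median of 0.85, against a median of 0.03 and 55% of genes above 0 over all genes tested. It was 1.25 (SE 0.82) for Igtp, 1.19 (SE 0.67) for Gbp3 and 1.13 (SE 0.60) for Gbp2. It was 1.12 (SE 0.48) for Irgm1, 0.85 (SE 1.05) for Iigp1 and 0.82 (SE 0.78) for Irgm2. Values were 0.76 (SE 0.42) for Gbp7, 0.49 (SE 0.82) for Gbp6 and 0.30 (SE 0.90) for Tgtp1, the smallest. None of the 9 passed at an adjusted p under 0.05 (limma, Benjamini-Hochberg adjusted p = 1 for each), where 0.0132% of all genes tested did. Before adjustment only Irgm1 was below 0.05 (limma's unadjusted p = 0.0419), 1 of 9 where the background was 1.63%. The 95% interval of the Irgm1 difference ran from 0.05 to 2.20 and that of Igtp from -0.57 to 3.07, so for Igtp both no difference and a large one lay inside the interval.

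These differences rested on single libraries. Without Tet1-null library 2 the median difference over the 9 genes was 0.28, and the values of Gbp6 and Tgtp1 fell below 0, to -0.27 and -0.36. Without control library 0 the value of Tgtp1 was -0.22, and without control library 1 the median was 1.41. Without Tet1-null library 1, which stood apart by its neutrophil markers, the median was 1.67 and the values ran from 1.15 (Tgtp1) to 2.17 (Igtp). Leaving out all 3 libraries that stood apart gives the same 1.67 by construction, because double-heterozygous library 0 and Tdg-heterozygous library 2 enter neither group mean. In that fit the smallest adjusted p of the 9 genes in limma was 0.704. With weights that count libraries far from their group less, Gbp2, Gbp3, Gbp7, Igtp and Irgm1 passed in limma, at adjusted p-values of 0.0321 to 0.0396, among 236 genes called.

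**Figure D4:**
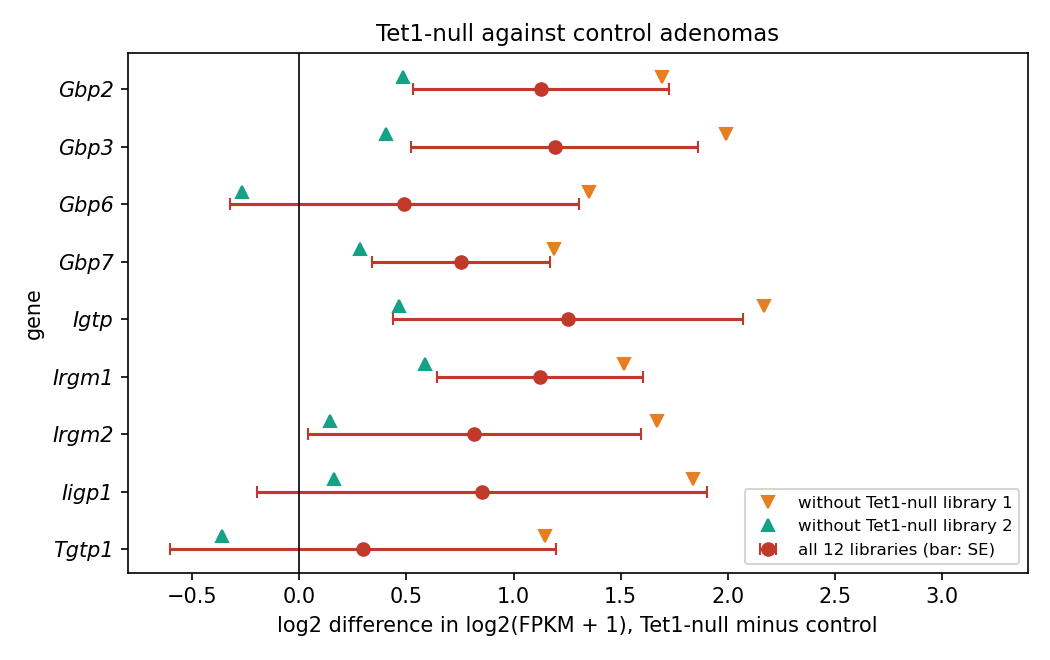
Difference in log2(FPKM + 1), Tet1-null minus control (x axis), for each GTPase with its standard error from all 12 libraries, and the values without Tet1-null library 1 or library 2. All 9 values from 12 libraries lie above 0, from 0.30 to 1.25, and those without library 2 lie lower, with Gbp6 and Tgtp1 below 0.

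The double-heterozygous and Tdg-heterozygous groups were compared with the same 3 controls, so those differences are not independent of the one above. The double-heterozygous minus control difference had a median of -0.30 over the 9 genes (-0.62 to 0.01), with 1 of 9 above 0 where 58.4% of all genes tested were. It passed the test for 0 of 9 (background 0.0198%), and 0 had an unadjusted p under 0.05 (background 1.17%). Its median was -0.70 without control library 0 and changed sign, to 0.22, without control library 1. It was -0.55 without double-heterozygous library 1 and -0.11 without double-heterozygous library 0. The value without the 3 libraries that stood apart is the same -0.11 by construction, as only double-heterozygous library 0 belongs to these groups. The same median was 0.09 with a term for Xist, which was above 10 FPKM in 2 control and 0 double-heterozygous libraries. The Tdg-heterozygous minus control difference had a median of 0.20 (-0.18 to 1.13), with 7 of 9 above 0 where 47.1% of all genes were. It passed for 0 of 9 (background 0.0198%), also before adjustment (background 0.898%), and its median was 0.73 without Tdg-heterozygous library 2 and the other libraries that stood apart. That median turned to -0.11 without Tdg-heterozygous library 1 and to -0.07 without control library 0, and was 0.13 without Tdg-heterozygous library 0 and 0.70 without control library 1.

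Pairs of mutant groups were compared in the same fit. Tet1-null exceeded double-heterozygous adenomas in the group mean of all 9 genes, with a median log2 difference of 1.16 (0.79 to 1.70) where 45.9% of all genes tested were above 0. None of the 9 passed (limma, adjusted p = 1, background 0.0198%), and 1, Irgm1, was below 0.05 before adjustment (limma's unadjusted p = 0.0394, background 1.82%). Irgm1 was also the 1 gene of 9 whose Tet1-null libraries all lay above the double-heterozygous libraries, by a log2 difference of 1.14 (SE 0.48), where 1.56% of all genes were higher without overlap. Without Tet1-null library 2 the median over the 9 genes was 0.47 and the Irgm1 difference 0.61, and without Tet1-null library 1 they were 1.95 and 1.53. Without the 3 libraries that stood apart they were 1.74 and 1.44. Between double-heterozygous and Tdg-heterozygous adenomas the median difference was -0.41 (-1.25 to -0.12), with 0 of 9 above 0 where 59.9% of all genes were. That median was -0.05 without Tdg-heterozygous library 1, -0.19 without Tdg-heterozygous library 0, -0.68 without double-heterozygous library 1 and -1.08 without Tdg-heterozygous library 2. Without the 3 libraries that stood apart it was -0.82, and the Gbp2 difference described next was -1.54. Gbp2 was the 1 gene of 9 lower without overlap, at a log2 difference of -1.25 (SE 0.60), where 0.898% of all genes were. It had an adjusted p of 1 in limma, as had the other 8 genes, with 0% of all genes called and 1.52% below 0.05 before adjustment, where no GTPase was.

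Tet1-null minus Tdg-heterozygous differences had a median of 0.68 (-0.003 to 0.88, the lowest being Gbp2), with 8 of 9 above 0 where 56.6% of all genes were. None passed (background 0.0198%) or was below 0.05 before adjustment (background 1.11%). The median was -0.003 without Tet1-null library 2, 0.16 without Tdg-heterozygous library 2, 1.03 without Tdg-heterozygous library 1 and 1.54 without Tet1-null library 1. It was 0.90 without the 3 libraries that stood apart. By group mean in FPKM, 8 of the 9 genes had the order Tet1-null, Tdg-heterozygous, control, double-heterozygous from high to low, and Gbp6 had the control above the Tdg-heterozygous mean. Neighbouring groups in that order overlapped for all 9 genes. In 6 comparisons of 9 genes, 2 of the 54 pairs of groups were free of overlap, those of Irgm1 and Gbp2 above. Over all genes tested, the first group was free of overlap and higher in 3.44% for Tet1-null against control, 5.78% for double-heterozygous against control, 1.61% for Tdg-heterozygous against control, 4.7% for double-heterozygous against Tdg-heterozygous and 1.98% for Tet1-null against Tdg-heterozygous, where 0 of 9 GTPases were. It was free of overlap and lower in 2.2%, 2.01% and 2.4% for the comparisons with controls, in that order, 2.38% for Tet1-null against double-heterozygous and 0.944% for Tet1-null against Tdg-heterozygous, where again 0 of 9 were.

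The rest of the pathway was followed from ligand to response in lists chosen with the results of these data known. Of 7 ligand genes listed, only 2 had deposited values, and both were at the edge of detection. Ifng, encoding interferon-gamma, was listed at 0 in 6 of 12 libraries and reached 0.224 FPKM at most. Ifnb1, encoding interferon-beta, was listed at 0 in 11. Of 6 receptor genes, 4 were higher in Tet1-null than in control adenomas by fitted difference and none passed, with a median of 0.09. Ifngr1, a chain of the interferon-gamma receptor, was at 64.3, 141 and 131 FPKM in the Tet1-null and at 85.4, 66.8 and 69.2 FPKM in the control libraries, and did not follow the GTPases. Its Tet1-null library 1, low for the GTPases, was high, and its library 0 was the lowest of both groups.

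Of 9 signal transducers, 9 were higher in Tet1-null than in control adenomas by fitted difference, with a median of 0.38, and 0 passed. Stat2, a factor of the complex that type I interferons activate, was at 10.5, 6.98 and 24.5 FPKM in Tet1-null libraries 0, 1 and 2 and between 5.78 and 8.0 FPKM in the other 9 libraries. Its log2 difference, Tet1-null minus control, was 0.80, and that of Irf9, of the same complex, was 0.40. As for the GTPases, Tet1-null library 2 was the highest of 12 for both. Irf8, a factor of myeloid cells, had a difference of 0.49 but was highest in Tet1-null library 1 at 25.6 FPKM. Among 6 inhibitors of the pathway the median difference was -0.06, with 1 above 0, Usp18 at 0.18. Usp18, which restrains type I interferon receptors, ranged from 0.592 FPKM in Tet1-null library 1 to 54.5 FPKM in Tet1-null library 0.

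Of 13 tested interferon-gamma response genes outside the GTPases, 12 were higher in Tet1-null than in control adenomas by fitted difference, with a median of 0.62, and 0 passed. Differences were 1.41 for Nlrc5, the activator of MHC class I genes, 1.17 for Tap1, the peptide transporter, and 1.17 for Psmb9, an immunoproteasome subunit. Batf2, at 1.25, was highest in Tet1-null library 1 (18.4 FPKM), where the GTPases were low. Of 15 genes for loading of GTPases on membranes and autophagy, 9 were above 0, with a median of 0.05, and of 9 inflammasome genes 8 were, with a median of 0.16. None in either list passed. Pycard, the inflammasome adaptor, was at 12.1, 164 and 42.8 FPKM in Tet1-null libraries 0, 1 and 2, an order unlike that of any GTPase.

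**Figure D5:**
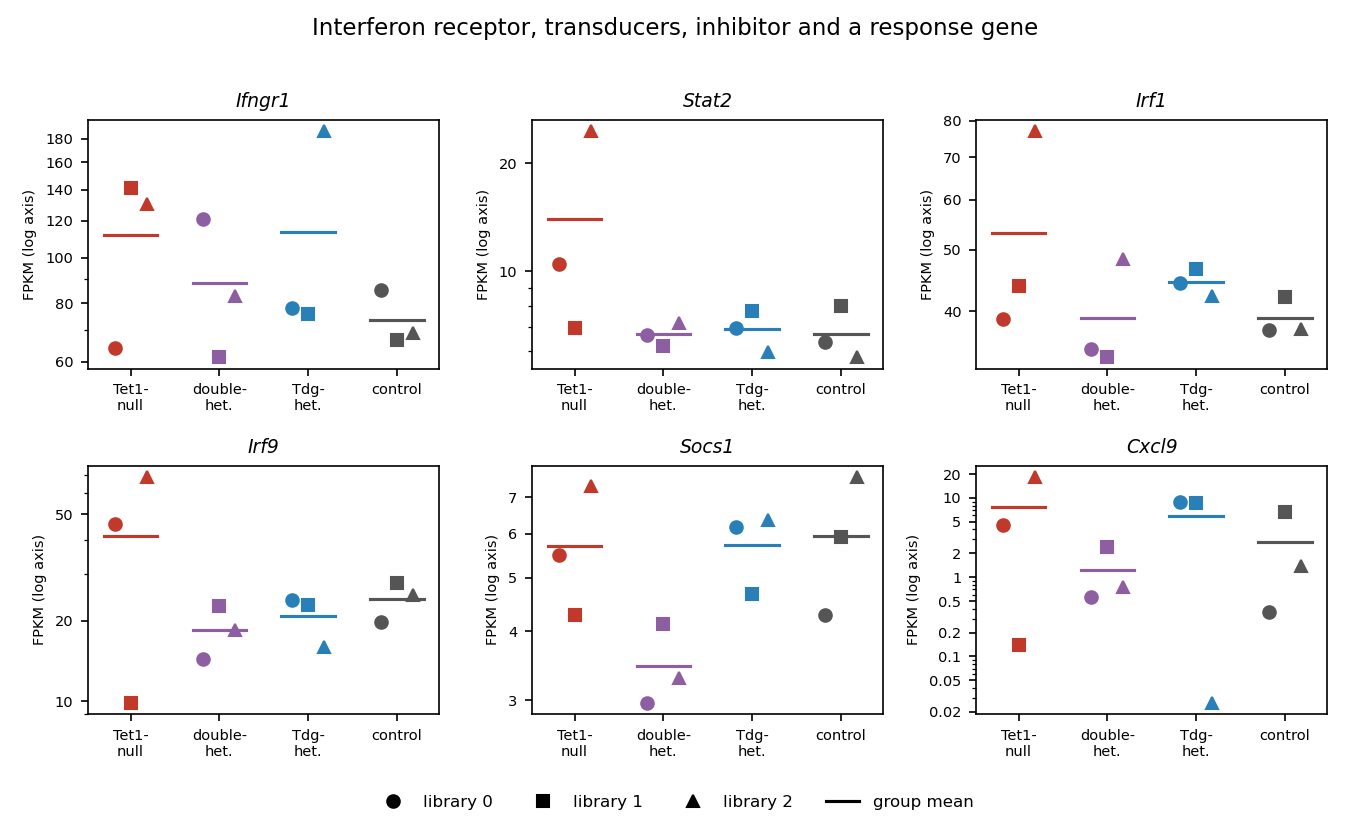
FPKM (log axis) of the receptor gene Ifngr1, the transcription factors Stat2, Irf1 and Irf9, the inhibitor Socs1 and the chemokine gene Cxcl9 in 12 libraries by genotype group, with bars for group means. Stat2 is highest in Tet1-null library 2 at 24.5 FPKM, as the GTPases are, whereas Ifngr1 in Tet1-null library 1 is at 141 FPKM.

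The 26 further GTPase genes listed had 20 in the table and 8 that were tested. All 8 tested were higher in Tet1-null than in control adenomas by fitted difference, with a median of 0.48, and 0 passed. Values were 0.87 for Gbp4, 0.80 for Ifi47, 0.55 for Gbp5 and 0.49 for Tgtp2, the near copy of Tgtp1.

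Of the 10 tested genes whose log2(FPKM + 1) was most like the mean of the GTPases over the 12 libraries, 9 are given here: Gbp4 (Pearson's r = 0.99), Ifi47 (0.97), Cxcl9 (0.95), Gbp5 (0.95), Gm12250 (0.95), Gbp8 (0.94), Psmb8 (0.93), Gbp9 (0.92) and Nlrc5 (0.92). The smallest of these 9 values without Tet1-null library 2 was 0.85, for Nlrc5. Of these 9 genes, 6 are GTPases themselves, counting Gm12250, a GTPase that RefSeq also names Irgb10. Cxcl9, a chemokine for T cells, was at 4.54, 0.138 and 18.4 FPKM in Tet1-null libraries 0, 1 and 2. It was at 6.58, 0.365 and 1.38 FPKM in control libraries 1, 0 and 2. Cxcl9 repeated the order that all of the GTPases had within both groups. A RefSeq promoter sequence was found for 5 of the 9, of which 2 held an ISRE core and 3 a GAS element.

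In tissue RNA, fewer cells of a type and less RNA per cell cannot be told apart, and several cell types could carry these transcripts. The summed macrophage and monocyte markers (10 of 11 in the table) ranged from 263 to 903 FPKM in the Tet1-null, 299 to 531 FPKM in the double-heterozygous, 511 to 713 FPKM in the Tdg-heterozygous and 387 to 865 FPKM in the control libraries. Tet1-null library 1, low for most GTPases, had the lowest macrophage sum, and Tet1-null library 0 the highest. The summed T and NK cell markers (13 of 13 in the table) ranged from 8.10 to 40.9 FPKM in the Tet1-null, 25.4 to 33.0 FPKM in the double-heterozygous, 20.8 to 37.9 FPKM in the Tdg-heterozygous and 23.5 to 46.6 FPKM in the control libraries. Tet1-null library 1 was the lowest of 12 here too. Tdg-heterozygous library 2, with the lowest mean over the GTPases (1.58), had the highest T and NK sum of its group, 37.9 FPKM. Trbc2 alone made up 22.3 FPKM of that sum. Of the 4 T and NK markers tested, Trbc2 and Klrd1 (5.21 FPKM) were the highest of the group there, and Trac (5.30 FPKM) and Cd3g (1.92 FPKM) the lowest. By mean log2(FPKM + 1) of the 13 markers, Tdg-heterozygous library 0 was slightly higher, at 1.18 against 1.16. The macrophage sum of Tdg-heterozygous library 2 was 518 FPKM, of which Cd14 was 280 FPKM and Lyz2 144 FPKM. The markers C1qa, C1qb and C1qc, at 17.6, 10.9 and 11.5 FPKM there, were at their lowest of 12 libraries. In the same library Cd14, Itgam (18.1 FPKM) and Mrc1 (10.5 FPKM) were at their highest. The intestinal epithelial markers summed to 3325 to 14508 FPKM in the Tet1-null and 4792 to 8186 FPKM in the control libraries. They summed to 4842 to 9836 FPKM in the double-heterozygous and 4802 to 17325 FPKM in the Tdg-heterozygous libraries. The libraries that stood apart by neutrophil markers were the highest of their groups, at 14508, 9836 and 17325 FPKM. Tet1-null library 1 also had the highest smooth muscle sum, 658 FPKM against 46.5 to 195 FPKM in the other libraries. The part of these cell types in the GTPase levels was not tested.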

How the data were processed

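RNA from 12 colonic adenoma samples in 4 genotype groups was sequenced as single-end reads of 75 nt from libraries made with 500 ng of total RNA, per the labels' protocols. Reads were aligned to mm10 with TopHat2, and Cufflinks and Cuffdiff are named, per the submitters' processing notes; versions, annotation and the treatment of reads with several matches are not given in the sources used here. The authors deposited FPKM values for 25705 genes, which were used without rescaling.

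Genes reaching 1 FPKM in 3 or more libraries were tested as log2(FPKM + 1) with limma 3.58.1 in R 4.3.3, a variance trend, 4 group means, 6 contrasts and Benjamini-Hochberg adjustment over 15150 genes, called at an adjusted p under 0.05. A fold change on this scale understates changes of low genes. The code was tested on simulated data. No 2 libraries held identical values, and the depth in reads is unknown. Named genes were the 9 GTPases and up to 4 genes per pathway list by size of the Tet1-null minus control difference. Every ligand with deposited values and the 10 genes most like the mean of the GTPases were also named. Irf1, Socs1 and the markers were added for illustration. The members and lists were chosen with earlier results of these data known. Alternatives covered the pseudocount, the filter, median-ratio scaling, library weights, groups fitted, single libraries left out, and 3 settings added after the data were seen. Some items are not reported here. Promoter sequences are from RefSeq on GRCm38.p6, and coordinates are from GENCODE M21.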

Additional observations from a re-analysis of the deposited data

How the results depend on the processing

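Of 272 values of single GTPases under alternative settings, 263 kept their direction and their side of the threshold. The 6 that newly passed did so with library weights, which give less weight to libraries far from their group, where Gbp2, Gbp3, Gbp7, Igtp and Irgm1 passed for Tet1-null against control (limma, adjusted p 0.0321 to 0.0396) and Irgm1 for Tet1-null against double-heterozygous (adjusted p 0.0480). Under all other settings the smallest adjusted p of a GTPase was 0.704. With library weights the members' median log2 differences were 1.95 and 2.20 for these comparisons. The 3 reversed values were those of Gbp6 (-0.27) and Tgtp1 (-0.36) without Tet1-null library 2 and Tgtp1 (-0.22) without control library 0; over all libraries left out in turn Gbp6 ranged from -0.27 to 1.35 and Tgtp1 from -0.36 to 1.15, and the cause was not tested.

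Numbers of genes called are given in the order Tet1-null, double-heterozygous and Tdg-heterozygous against control, double-heterozygous against Tdg-heterozygous, and Tet1-null against each of these, and were 2, 3, 3, 0, 3 and 3. They were 4, 5, 4, 0, 5 and 5 with no filter, 0, 2, 1, 0, 1 and 1 with a mean FPKM of at least 5, and 236, 5, 4, 0, 82 and 4 with library weights. With only the groups compared they were 1, 12, 6, 1, 7 and 6. A pseudocount of 5 gave 1 for the first. The settings added after the data were seen gave 6, 8, 5, 2, 4 and 5 without the 3 libraries that stood apart, 1 for the first with Xist above or below 10 FPKM as a term, and 0 in all 6 with protein-coding genes only. Leaving out each library gave 1 to 3, 2 to 5, 2 to 5, 0 to 2, 3 to 4 and 2 to 4. Xist was above 10 FPKM in 1 Tet1-null, 0 double-heterozygous, 2 Tdg-heterozygous and 2 control libraries, and with its term the members' median for double-heterozygous minus control was 0.09. The cause of these shifts was not tested. No paired analysis was possible because the table's columns carry no number of the labelled replicates. With 3 libraries a group and a median standard error of 0.78 on the log2 scale for the 9 genes, only large differences could pass.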
